A study of Mus musculus with 3 samples.

Results

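Promoters poor in CpG that were nevertheless open in mouse monocytes were examined in 3 DNase-seq libraries, an assay in which the nuclease DNase I cuts accessible DNA and the cuts are sequenced. The libraries came from primary monocytes of virgin female B6CASTF1/J mice, adults of 2 months. B6CASTF1/J is the hybrid of C57BL/6J and CAST/EiJ mice. The libraries are labelled biological replicates 1, 2 and 4, carry 1 donor identifier and form 1 group. Errors therefore reflect only how far the libraries differ, and that spread may be technical. A p-value rests on 1 difference per library and does not measure that spread. No treated or control group was present, and how the monocytes were isolated is not given in the sources used here. A gene was taken where its CpG ratio was under 0.25 and where a peak of the longer of the authors' peak lists lay within 1 kb of its transcription start site (TSS) in all 3 libraries. The CpG ratio is the observed number of CpG dinucleotides over the number expected from the C and G content, here within 500 bp of the most upstream TSS of a coding transcript (mm10, GENCODE M21). Of 20720 autosomal protein-coding genes, 5612 had a ratio under 0.25, and 333 of these met the peak rule. These 333 genes are 5.93% of the low-CpG genes. The rule was met by 49.8% of all autosomal coding genes and by 66.1% of the 15108 genes of higher ratio. A further 208 low-CpG genes had a promoter peak in 1 or 2 libraries, and 5071 had none in any library. These shares follow from the rule and were not tested.

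Most vertebrate promoters lie in CpG islands, stretches of unmethylated CpG-rich DNA that tend to be accessible in many cell types. Promoters outside islands are often methylated where they are silent, and their opening is usually tied to a cell type and to the transcription factors it makes. In the monocyte lineage these factors include PU.1 (an ETS factor), the C/EBP and RUNX factors and the interferon regulatory factors (IRFs), and many surface receptors and secreted proteins of phagocytes are driven from such promoters. A footprint is a short stretch inside an accessible region that is cut less than its flanks, which can mark a bound protein.

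The 150 bases upstream of the TSS of 8 of the genes show where footprints recurred. They are RefSeq's reference sequence of GRCm38.p6, the build named mm10, not the alleles of these mice, read 5′ to 3′ on the strand of the gene. Capitals mark bases that lay inside a footprint in each of the 3 libraries, and no listed stretch overlaps an annotated exon. Of 28 genes picked by the naming rule for tall peaks, many footprints or a place in a receptor or monocyte list, 20 had no base in this stretch inside a footprint of all 3 libraries; the first 7 shown come from the 8 that had at least 1. H2-Aa was added after its values were seen, for the CREB-type match under its footprint.
Cyp4f13, chr17:32947403-32947552, minus strand: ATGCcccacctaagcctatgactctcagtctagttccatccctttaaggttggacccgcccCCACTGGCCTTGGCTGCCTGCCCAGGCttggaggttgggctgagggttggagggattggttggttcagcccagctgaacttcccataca
Cd68, chr11:69666154-69666303, minus strand: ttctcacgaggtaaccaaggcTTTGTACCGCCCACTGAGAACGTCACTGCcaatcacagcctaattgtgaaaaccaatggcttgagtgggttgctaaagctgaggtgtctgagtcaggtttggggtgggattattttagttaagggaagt
Nadk, chr4:155562228-155562377, plus strand: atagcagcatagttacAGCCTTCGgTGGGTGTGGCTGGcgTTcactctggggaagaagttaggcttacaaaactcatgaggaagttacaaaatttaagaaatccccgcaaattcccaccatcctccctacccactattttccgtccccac
Ncf4, chr15:78244651-78244800, plus strand: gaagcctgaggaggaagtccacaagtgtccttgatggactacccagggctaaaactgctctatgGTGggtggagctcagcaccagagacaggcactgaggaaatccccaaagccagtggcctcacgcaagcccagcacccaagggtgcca
Fcgr3, chr1:171059404-171059553, minus strand: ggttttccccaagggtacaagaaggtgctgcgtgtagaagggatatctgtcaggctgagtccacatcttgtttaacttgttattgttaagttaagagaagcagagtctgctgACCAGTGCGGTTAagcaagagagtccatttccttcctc
Slamf8, chr1:172590569-172590718, minus strand: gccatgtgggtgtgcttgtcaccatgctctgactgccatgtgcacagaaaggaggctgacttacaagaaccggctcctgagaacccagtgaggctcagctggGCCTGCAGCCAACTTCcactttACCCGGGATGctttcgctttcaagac
Treml4, chr17:48264145-48264294, plus strand: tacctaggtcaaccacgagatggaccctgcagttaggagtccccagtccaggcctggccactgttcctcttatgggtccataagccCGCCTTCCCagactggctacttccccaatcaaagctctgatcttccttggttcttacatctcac
H2-Aa, chr17:34287824-34287973, minus strand: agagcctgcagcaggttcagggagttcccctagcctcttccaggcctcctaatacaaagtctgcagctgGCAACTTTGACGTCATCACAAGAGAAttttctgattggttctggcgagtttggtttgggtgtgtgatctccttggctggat

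In H2-Aa, a chain of the class II major histocompatibility complex (MHC) that presents peptides, the capitals covered 26 bases and held the letters TGACGTC on both strands, from 74 to 67 bp upstream of the TSS. Its peak had heights of 3.90, 3.03 and 5.04 in replicates 1, 2 and 4, in the authors' signal units. Class II promoters are known for a conserved element at which RFX, CREB and NF-Y proteins assemble. In Cd68, a lysosomal glycoprotein used as a macrophage marker, 29 bases were in capitals, and they held a GC box match (GGGCGG on the minus strand) from 123 to 118 bp upstream. In Nadk, the NAD kinase, 23 bases were in capitals and held all 7 bases of a KLF match (CACACCC on the minus strand). Fcgr3, the low-affinity IgG receptor III, had a C/EBP match (TTGCNNAA) from 28 to 21 bp upstream, of which 3 bases were in capitals. Its PU.1 match (GAGGAAG) from 7 to 1 bp upstream was outside the capitals, as were the PU.1 matches of Ncf4 and Nadk. A match is a run of letters and does not show that the factor was bound.

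The label of low CpG content held for the TSS windows but only in part for the peaks themselves. The genes had a median CpG ratio of 0.171 and 11 CpG sites in the TSS window, against 0.133 and 6 sites in the low-CpG genes without a peak and 0.760 and 67 sites in the open genes of higher ratio. In the tallest promoter peak itself the median ratio was 0.204, and 199 of the 333 peaks (59.8%) were under 0.25. In 31 genes the peak had a ratio of 0.6 or more. In 43 genes (12.9%) the peak lay within 1 kb of another coding TSS whose own ratio was 0.25 or more; in 33 of them that TSS belonged to the same gene and in 11 to another gene, with 1 gene in both counts. The other 290 genes are called here the genes alone, and values are given with and without the 43 where they differ. Of these 290, 191 had a peak with a ratio under 0.25. The 43 include 9 of the 12 genes with the tallest peaks. The peak of Pinlyp, for example, had a ratio of 0.930 and its midpoint in replicate 1 lay at -942 bp from the Pinlyp TSS, minus standing for upstream. In 317 genes the tallest peaks of the 3 libraries overlapped one another, and 8 genes shared their peaks in pairs at 4 sites.

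Peak height is the value the authors gave each peak, on a scale that the sources used here do not describe. The median height of the 333 peaks was 1.39 in replicate 1, 1.12 in replicate 2 and 1.51 in replicate 4, a mean of 1.34 ± 0.201 (SD, n = 3 libraries). The open genes of higher CpG ratio had a median of 4.27 ± 0.920, and the ratio of the medians was 0.317. The genes alone had a median of 1.29 ± 0.185 and the 43 others 2.06 ± 0.424. Low-CpG genes with a peak in only 1 or 2 libraries had the lowest peaks, with a median of 0.624 ± 0.0600. As ranks within a library, the 333 peaks were ordinary: their median lay at the 65.7th, 56.0th and 60.6th percentile of all peaks of replicates 1, 2 and 4. The heights of the 333 genes kept much the same order in each pair of libraries, with Spearman's rho between 0.936 and 0.949 across genes, which are not independent replicates and share the call of a peak in every library. In bulk libraries, a site open in few cells and a site weakly open in every cell cannot be told apart.

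**Figure D1:**
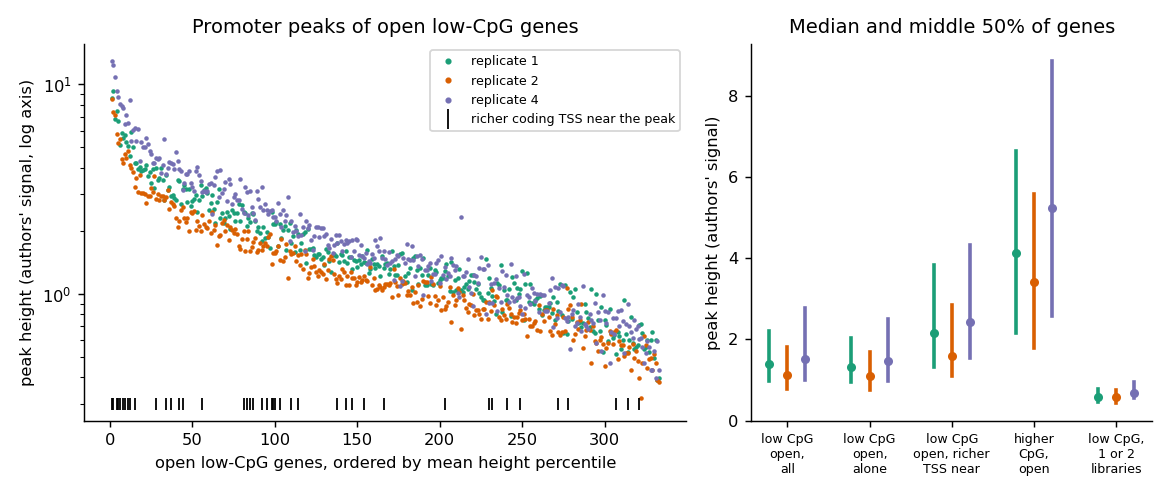
Left, height of the tallest promoter peak (authors' signal, log axis) of each of the 333 genes in each replicate, ordered by mean percentile, with ticks at the 43 genes whose peak lies near a CpG-richer coding TSS; these ticks are dense among the tallest peaks. Right, median (point) and middle 50% of genes (line) per replicate: open genes of higher CpG content sit above the low-CpG genes in each of the 3 replicates, and genes with a peak in 1 or 2 libraries lie lowest.

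Among the tallest peaks not near a CpG-richer coding TSS, that of Cyp4f13, a fatty acid hydroxylase of the cytochrome P450 family, came first. Its height was 6.79, 7.11 and 10.8 in replicates 1, 2 and 4, and its midpoint was at -68 bp from the TSS in replicate 1. Cd68 followed with heights of 5.85, 4.43 and 7.92. Ncf4, a subunit of the phagocyte NADPH oxidase that makes superoxide, had heights of 5.29, 4.45 and 7.12, with 7, 5 and 5 footprints. Replicate 4 gave the highest value in each of these 3 genes. The next genes alone by rank are given in order, a choice made after their values were seen. Cd74, the invariant chain of MHC class II, had heights of 5.93, 3.99 and 5.37. Aanat, the melatonin pathway enzyme serotonin N-acetyltransferase, had 5.01, 3.804 and 6.07, from a peak at -1066 bp from its TSS in replicate 1. Ptpn7, a tyrosine phosphatase of blood cells, had 4.21, 3.59 and 5.37. Hsd3b7, an enzyme of bile acid synthesis, had 3.94, 3.08 and 6.13, and the adaptor Hcst (DAP10) had 4.03, 3.70 and 4.30. Hcrt, the orexin precursor of neurons, had 3.86, 3.02 and 5.29, H2-Aa followed, and Scgb1c1 of the secretoglobin family had 3.95, 3.01 and 5.01. In replicate 1 the peak midpoint lay 1040 bp downstream of the TSS in Hcrt, at -536 bp in Scgb1c1 and at -53 bp in Hsd3b7. The list thus held genes of immune cells beside genes known from other tissues. Among the latter, the peaks of Aanat, Hcrt and Scgb1c1 lay away from the TSS. At the other end, Fcrls, Trim30d and Akap3 had some of the lowest peaks. Trim30d had heights of 0.388, 0.390 and 0.594, the first being the lowest of the 333 heights in replicate 1. Cabyr, Metrnl, Ccdc78, Tbc1d10c, Mtmr2, Ell2, Tas1r1 and Naa15 completed the 12 tallest beside Pinlyp, with mean heights from 5.48 in Tas1r1 to 9.68 in Cabyr, and all 8 were among the 43. The peak of Tas1r1, a taste receptor, had a CpG ratio of 1.02 and lay at -752 bp from its TSS in replicate 1.

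The gene lists searched by function held 59 of the 333 genes (17.7%). The lists were drawn up with earlier results on these libraries known, and their open shares, to be read against 5.93% of all low-CpG genes, were not tested. Of the leukocyte signalling and adaptor genes of low CpG ratio, 8 of 10 were open in all 3 libraries: Hcst, Tyrobp, Laptm5, Cd52, Rac2, Cd53, Arhgdib and Lat2. Tyrobp (DAP12), an adaptor that couples activating receptors to Syk kinase, had heights of 3.97, 2.93 and 3.79. Of the inhibitory and paired receptors, 17 of 32 were open. They were led by Trem3 (heights 2.74, 2.30 and 3.75) and by Slamf8 (3.03, 2.07 and 3.08). Cd33, a sialic acid binding receptor, had 2.19, 2.13 and 3.63, and Cd244a, a receptor of the SLAM family, had 2.42, 1.93 and 2.80. Integrin and adhesion genes were open in 6 of 11 cases: Selplg, Itgb2, Itgax, Itgam, Spn and Itgb7. Among Fc and complement receptors 7 of 14 were open, and Itgb2, Itgax and Itgam count in both lists. Itgb2, the common beta chain of the leukocyte integrins, had heights of 3.20, 2.09 and 3.07. Fcgrt, the neonatal Fc receptor, had 2.54, 2.01 and 3.32. Fcgr3 had 1.44, 1.28 and 1.73, C5ar2 had 1.30, 0.913 and 1.51, and Itgax had 1.01, 0.798 and 1.32. Fcgr3 was above C5ar2 in each library, but the ranges of the 2 genes over the libraries overlapped. Pattern recognition genes were open in 4 of 8 cases (Nlrp3, Tlr9, Naip2 and Clec4n) and cytokines in 6 of 19 (Ccl2, Il12b, Ccl3, Ccl9, Il18 and Il1b). Chemokine receptors were open in 2 of 13 cases and antimicrobial and secreted genes in 4 of 21.

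Of the 15 low-CpG genes of the monocyte list, 7 were open in all 3 libraries, 5 in 1 or 2 and 3 in none. Treml4, a receptor of Ly6C-low monocytes and macrophages, had heights of 2.08, 1.61 and 2.83. Lyz2, the lysozyme of myeloid cells, had 1.32, 1.13 and 1.41. The lectin Clec4a1 had 1.25, 1.03 and 1.47. Csf1r, the receptor that monocytes need for survival, had 1.30, 0.975 and 1.24, and Ms4a6c had 1.11, 0.834 and 1.13. Itgam and Cx3cr1 were the other 2. Treml4 ranked 90 of 333 by height and Lyz2 170, the others lay lower, and Cx3cr1 was near the bottom with 0.561, 0.568 and 0.520. Fcgr4, Fcgr1, F13a1, Ly6c2 and Ms4a4c had a peak in 1 or 2 libraries. The chemokine receptor Ccr2, Chil3 and Cd300e, all on the list of monocyte markers, had no promoter peak in any library. The factor genes of the myeloid lineage did not enter: none of the 20 on the list had a low CpG ratio, and 17 of the 20 were open in the higher class.

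Lists of other cell types were short in low-CpG genes, and at a background of 5.93% a count of 0 in so few genes does not set them apart. No gene of the B cell (7), erythroid (8), megakaryocyte (9), mast cell and basophil (10), eosinophil (9), hepatocyte (7), neuronal (2), muscle (6) or epithelial (4) lists was open in all 3 libraries, the number in brackets being the low-CpG genes of the list. The neutrophil list had 3 of 15: Csf3r, S100a8 and Mmp8, with mean heights of 0.881 ± 0.106, 0.859 ± 0.124 and 0.559 ± 0.0907 (SD, n = 3 libraries). Camp had a peak in 1 or 2 libraries. The other 11 had none in any library: Lcn2, Mmp9, S100a9, Ltf, Prtn3, Elane, Wfdc21, Mpo, Ly6g, Stfa2l1 and Retnlg. The tissue macrophage list had 2 of 9 (Adgre1 and Trem2), the dendritic cell list 2 of 8 (Itgax and Clec10a), the natural killer list 1 of 12 (Cd244a) and the T cell list 1 of 5 (Cd5). What part cells of other types have in any of these peaks was not tested.

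**Figure D2:**
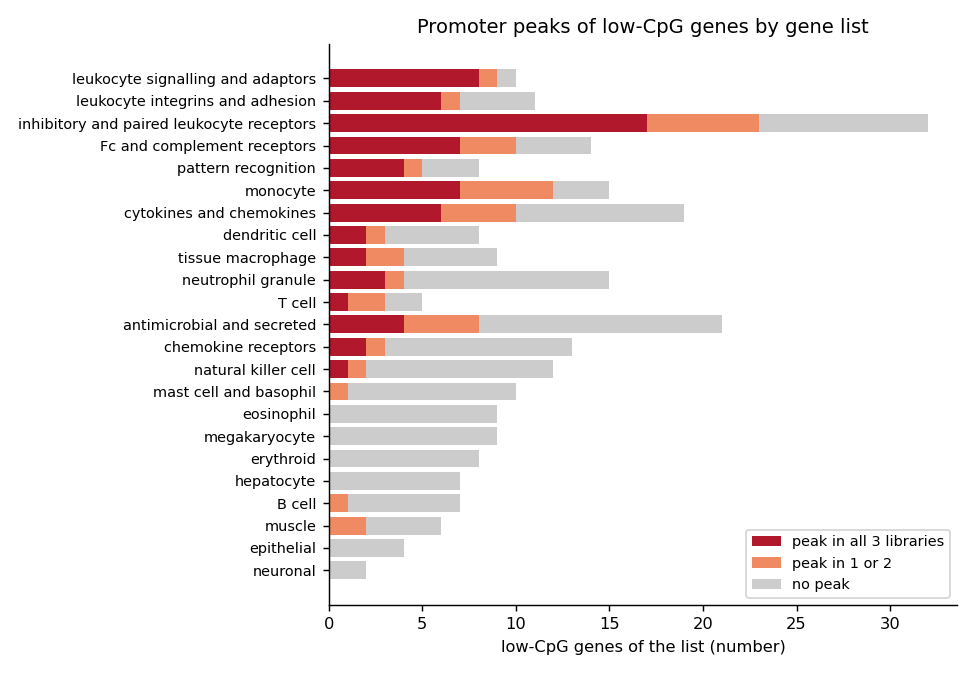
Low-CpG genes of each list (bar length, number of genes) with a promoter peak in all 3 libraries, in 1 or 2, or in none, ordered by the open share. The lists of leukocyte signalling, adhesion and receptor genes stand at the top, and the eosinophil, megakaryocyte, erythroid, hepatocyte, epithelial and neuronal lists hold none with a peak in any library.

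Open shares varied between gene families, which was not tested. None of 1087 olfactory receptor and none of 321 vomeronasal receptor genes of low CpG ratio was open in all 3 libraries, and neither were any of 56 defensins, 49 serpins, 44 keratin-associated proteins or 40 zinc finger genes. Without the sensory receptors, 332 of 4167 low-CpG genes were open, or 7.97%. The only sensory receptor in the set was Tas1r1, with its peak beside a CpG-richer TSS. The Trem and Trem-like receptors were open in 5 of 6 cases: Trem3, Treml4, Trem1, Treml2 and Trem2. Schlafen genes, which are induced by interferon, were open in 4 of 6 cases (Slfn2, Slfn8, Slfn3 and Slfn1), Slamf receptors in 3 of 5 and integrins in 4 of 7. Open Trim genes numbered 6 of 19 and interferon-inducible Ifi and guanylate-binding genes 7 of 31. Among other families of immune receptors, Fc receptors were open in 5 of 14 cases, Cd300 genes in 4 of 11 and Lilr, Pir and Pilr genes in 3 of 8. No Siglec-named gene (6), formyl peptide receptor (7), Ly6 gene (11) or natural killer lectin-like receptor (19) of low ratio was open in all 3 libraries. Outside any named family, 210 of 2377 low-CpG genes (8.84%) were open, so most of the 333 belong to no family searched.

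The peaks sat at the TSS less often than those of CpG-rich genes. The tallest peak covered the TSS in 50.95% ± 3.31 of the 333 genes, in 56.6% ± 2.95 of the genes alone and in 69.3% ± 1.02 of the open genes of higher CpG ratio (SD, n = 3 libraries). Its midpoint was more than 500 bp from the TSS in 28.1% ± 0.625, 21.2% ± 0.527 and 7.90% ± 0.0504 of them. Since the rule took any peak within 1 kb, these shares describe what it let in. At its edge, the farthest peak edges counted were at 992 bp (Vgf) and 989 bp (Ms4a6b), and Errfi1 at 1002 bp and Fancl at 1006 bp fell outside. On the CpG scale, C1ra and Slamf6 were just inside at 0.249, and Gm10392 and Lst1 just outside, Lst1 at 0.251. Just outside, Lst1 had heights of 1.24, 0.763 and 1.41, and Gm10392 0.965, 0.993 and 0.866. Just inside, C1ra had 1.29, 0.754 and 0.805. Slamf6, 1 of the 43 genes near a CpG-richer TSS, had 1.74, 1.13 and 1.76, above these other genes in each library.

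Peaks away from promoters were more frequent around the open low-CpG genes than around those without a promoter peak. Within 50 kb of the TSS, and outside 1 kb of any coding TSS, the 333 genes had 5.38, 4.28 and 4.60 distal peaks per gene in replicates 1, 2 and 4. The 5071 low-CpG genes without a promoter peak had 1.58, 1.21 and 1.43. The values of the open genes were higher in 3 of 3 libraries, and the groups did not overlap. The difference was 3.35 ± 0.399 peaks per gene (SD, n = 3 libraries), with an exact two-sided sign-flip permutation p of 0.25, the smallest that 3 libraries allow. The genes alone had 4.84 ± 0.604 and the 43 others 4.17 ± 0.349. Genes with a promoter peak in 1 or 2 libraries had 3.93 ± 0.606, and the open genes of higher CpG ratio 3.17 ± 0.424. No distal peak was present in any library around 17 of the 333 genes (5.11%), against 2511 of the 5071 genes (49.5%).

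Gene surroundings differed between the groups and moved with this count. Another coding gene open in all 3 libraries was absent within 50 kb in 33.9% of the 333 genes and in 73.0% of the 5071, while the mean number of coding genes there was alike, at 2.46 and 2.52. Where no neighbour was open, 113 of the open low-CpG genes had 4.53 ± 0.512 distal peaks and 3702 genes without a promoter peak had 0.727 ± 0.111. With 1 or 2 open neighbours the values were 4.82 ± 0.658 and 2.999 ± 0.401, and with 3 or more they were 4.98 ± 0.564 and 3.88 ± 0.349. The count around the open genes thus varied little with their neighbours, whereas around genes without a promoter peak it was higher where more neighbours were open. With sensory receptor genes left out, the values were 4.76 ± 0.571 and 1.87 ± 0.248. By distance, the open low-CpG genes had 0.876 ± 0.161 peaks per 10 kb between 1 and 2 kb from the TSS and 0.430 ± 0.0478 between 20 and 50 kb. Around the genes without a promoter peak the density was flat, from 0.116 ± 0.0181 to 0.149 ± 0.0174.

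**Figure D3:**
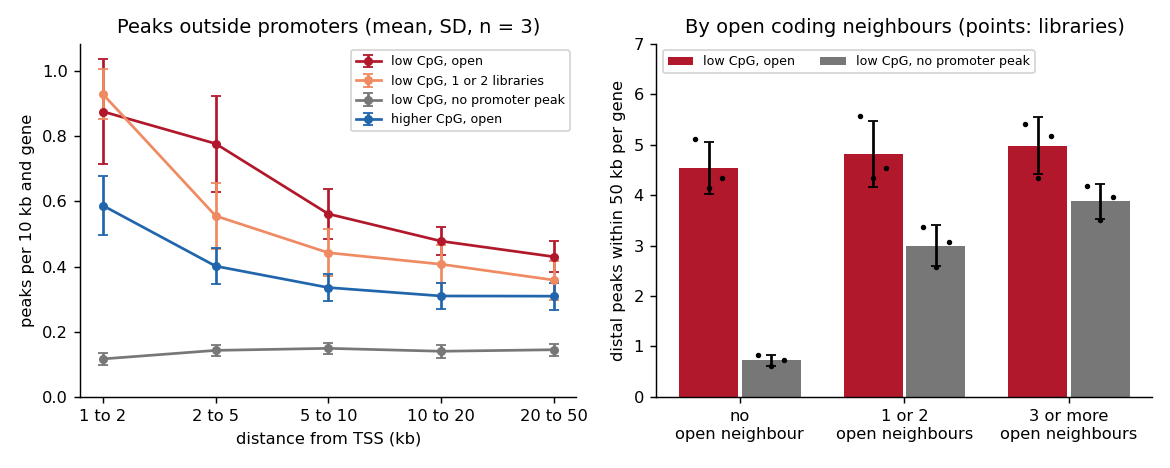
Left, peaks outside promoters per 10 kb and gene by distance from the TSS (mean and SD of 3 libraries): the open low-CpG genes fall from 0.876 to 0.430, and genes without a promoter peak stay between 0.116 and 0.149. Right, distal peaks within 50 kb per gene (bars, mean and SD; points, libraries) by the number of open coding neighbours: the gap between the groups narrows as open neighbours are added.

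The genes with the most distal peaks included those of antigen presentation and an Fc receptor, and in several of them 1 library stood apart. Cd74 had 21, 24 and 9 distal peaks in replicates 1, 2 and 4, and Fcgr3 had 17, 18 and 16. Selplg, the ligand of P-selectin on leukocytes, had 19, 9 and 14, and Fam129c had 15, 11 and 14. Fcgr3 and Fam129c were high in every library. By contrast H2-Eb1, a class II MHC chain, had 27, 11 and 10, and Tap2, a subunit of the peptide transporter of class I presentation, had 23, 6 and 10. Pld4, an exonuclease of endolysosomes, had 26, 8 and 5, and Zbp1, a sensor of Z-form nucleic acids, had 3, 41 and 3. The count of Zbp1 thus rested on replicate 2. Those of H2-Eb1, Tap2 and Pld4 were highest in replicate 1 and from 5 to 11 in replicates 2 and 4. The means of the 333 genes in replicates 2 and 4 were 4.28 and 4.60. In all, 12 of the 333 genes had a highest library count of at least 10 that was at least 2 times the middle one, a cutoff set after the values were seen. Without these 12 genes the difference was 3.10 peaks per gene. Among genes without a promoter peak the largest counts were those of Nanos3 (18, 24 and 23), Tas1r3 (20, 26 and 5) and Kdm6b (18, 15 and 17).

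Footprints were found in nearly all of the open low-CpG promoters but were sparser than at CpG-rich ones. A footprint lay in the tallest peak of every library in 271 of the 333 genes (81.4%), and no gene lacked one in all libraries. The density was 1.09 ± 0.0557 footprints per 100 bp of peak, against 1.65 ± 0.0575 in the open genes of higher CpG ratio (SD, n = 3 libraries). The difference was -0.563 ± 0.0362, lower in 3 of 3 libraries, with an exact two-sided sign-flip permutation p of 0.25, again the smallest possible. Footprint calls move with peak height. Within 4 bands of height, set to hold equal numbers of the low-CpG genes, the mean difference was -0.145, and it was not lower in every band. In the lowest band the open low-CpG genes had more footprints by 0.0126, 0.0221 and 0.0827 per 100 bp in replicates 1, 2 and 4. In the tallest band they had fewer, with differences of -0.319, -0.443 and -0.470. That band has no upper limit, so heights within it were not matched. The median height of the open genes of higher CpG ratio was 4.13, 3.42 and 5.25 in replicates 1, 2 and 4. The upper quartile of the low-CpG genes was 2.22, 1.81 and 2.785. The most footprints per peak were in Nadk (9, 9 and 7), Hcrt (5, 7 and 11), Snx20 (8, 5 and 7) and Isg20 (6, 7 and 7), an exonuclease induced by interferon. The peak of Hcrt was centred 1040 bp downstream of its TSS in replicate 1 and had a CpG ratio of 0.671.

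**Figure D4:**
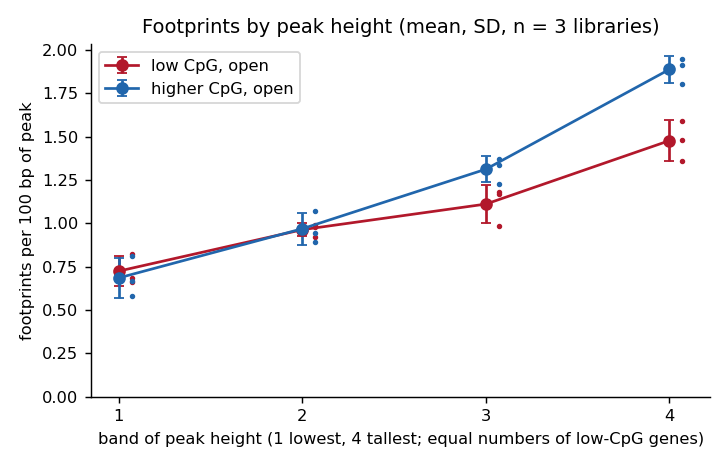
Footprints per 100 bp of promoter peak by band of peak height, with limits that divide the low-CpG genes of each library into 4 equal bands (points beside the lines, libraries; lines, mean and SD of 3). Both groups rise with height, they overlap in the lower bands, and the open genes of higher CpG ratio lie above in the tallest band, which has no upper limit.

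Low-CpG genes without a promoter peak were almost without footprints as well. A footprint lay within 1 kb of the TSS in any library in 3 of the 5071 genes and in every library in 1. Positions where the authors listed a cut rate at a false discovery rate under 0.05 lay within 1 kb in 71 of these genes (1.40%) in at least 1 library. In all 333 open genes such positions were listed in each library. The peak and the cut rate were derived from the same alignments, so this is a description of the lists and not separate support.

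The letters of the promoters differed between open and closed low-CpG genes. In the window from 250 bp before to 49 bp after the TSS, searched on both strands, the PU.1-type letters GAGGAAG were present in 99 of the 333 promoters (29.7%). They were present in 13.7% of low-CpG promoters without a peak, in 12.4% of open promoters of higher CpG ratio and in 13.3% of all autosomal coding promoters. Left out of the count, the 43 genes changed little, since 87 of the 290 genes alone held the match. The median GC content of the TSS window was 51.15% in the open genes and 43.8% in the closed ones. At a GC content from 45 to 50%, 31.8% of 88 open and 13.4% of 1086 closed promoters held GAGGAAG. From 50 to 55% the shares were 29.9% of 137 and 18.6% of 814. From 40 to 45% they were 13.3% of 45 and 13.5% of 1202, with no gap. The match was most frequent close to the TSS on either side. Its centre fell in the last 50 bp upstream in 31 open promoters (9.31%), against 2.54% of the closed ones. From the TSS to 49 bp downstream it fell in 29 (8.71%), against 3.94%.

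Other motifs differed in either direction, and some of the rarer ones by a larger ratio, such as the CTCF letters at 1.80% of open and 0.296% of closed low-CpG promoters. IRF-type letters, GAAA repeated after any 2 bases, were in 9.01% of open and 4.54% of closed low-CpG promoters, against 3.55% of all promoters. C/EBP-type letters TTGCNNAA were in 17.7% and 15.6%, against 10.4% of all. RUNX letters TGTGGTT were in 10.2% and 8.38%, and AP-1 letters TGANTCA in 10.8% and 11.9%. The GC box GGGCGG, which holds a CpG, was in 15.9% of the open and 5.52% of the closed low-CpG promoters. It was in 67.8% of the open promoters of higher ratio, which follows at least in part from the selection by CpG ratio. A TATA box, taken as TATAAA or TATATA starting 40 to 20 bp before the TSS on the strand of the gene, went the other way. It was present in 6 of the 333 open promoters (1.80%), in 8.78% of the closed ones and in 3.50% of all. Without the sensory receptors the shares were 1.81% and 10.3%. Some of these letters overlap: GAGGAAG contains the GGAA core of every ETS factor, and promoters are not independent of one another, so no test was made.

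**Figure D5:**
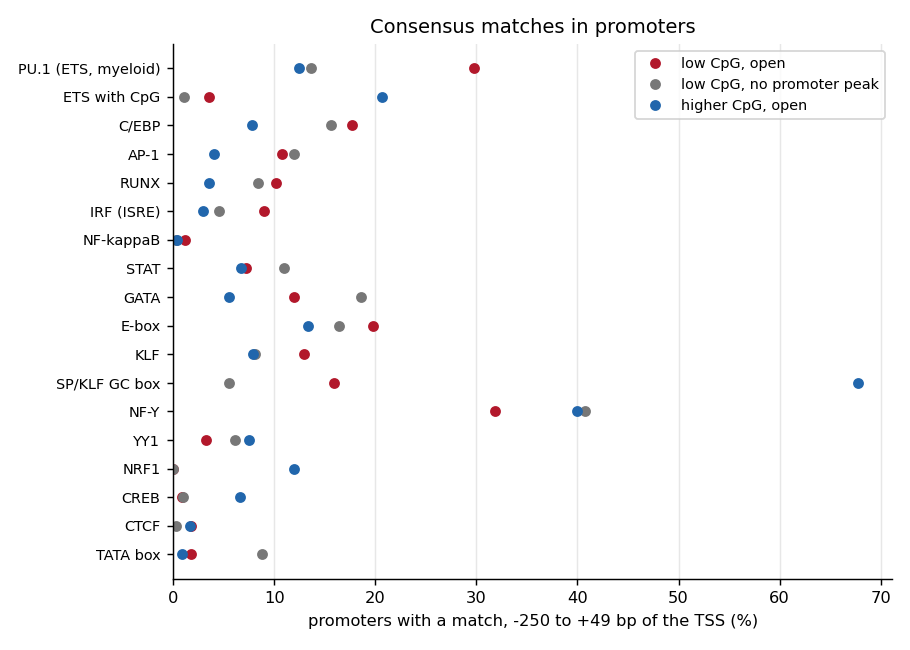
Share of promoters (%) with a match to each of 17 consensus motifs or a TATA box in open low-CpG genes, low-CpG genes without a promoter peak and open genes of higher CpG ratio. The PU.1-type match stands at 29.7% in the open low-CpG genes against 13.7% and 12.4%. The GC box, which holds a CpG and so depends on the selection by CpG ratio, stands at 67.8% in the genes of higher ratio.

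Inside the peaks, footprints of the open low-CpG genes carried a different mix of letters from those of CpG-rich promoters. With each footprint extended by 5 bp on either side, 1.77% ± 0.167 of footprints held GAGGAAG, against 0.690% ± 0.0661 in the open genes of higher CpG ratio (SD, n = 3 libraries). C/EBP letters were in 1.55% ± 0.429 against 0.376% ± 0.0166, and IRF letters in 0.858% ± 0.161 against 0.146% ± 0.0264. The GC box was in 5.59% ± 0.718 against 19.95% ± 0.529. It holds a CpG, so its lower share follows at least in part from the selection by CpG ratio. Set against the rest of the same peaks, PU.1 letters were hardly denser inside footprints, with 1.40 ± 0.0481 per kb inside and 1.28 ± 0.0361 outside. IRF letters were at 0.791 ± 0.0372 inside and 0.279 ± 0.0147 outside. The letters of CTCF, CCANN directly followed by AGGNGGC, were at 1.18 ± 0.145 inside and 0.0508 ± 0.0311 outside. These comparisons were not tested.

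Matches were next counted under footprints of all 3 libraries, again extended by 5 bp, so some lie beside the capitals shown above or only partly in them. Such a match was found most often for the GC box, in 25 genes (7.51%), with Cyp4f13, Cd68 and Ncf4 among them. In Cyp4f13 the GC box upstream of the TSS had 0 of its 6 bases in capitals. The 12-letter CTCF match did so in 17 genes (5.11%), with Hsd3b7 the highest of them by peak height. The E-box CAGCTG did so in 10 genes. The IRF match did so in 6 genes: Trim12c, Gm6904, Sp140, Tapbpl, Zbp1 and Phf11b. The C/EBP match did so in 6: Ptafr, the receptor of platelet-activating factor, Csf2rb, the shared beta chain of the GM-CSF, IL-3 and IL-5 receptors, Fut7, Fcgr3, Slc2a9 and Mr1. The PU.1 match did so in 4, among them Laptm5, Pld4 and B430306N03Rik. CREB letters did so in Ell2, H2-Aa and Maff, and NF-Y letters CCAAT in 9 genes, Cd74 and H2-Eb1 among them. These genes were picked out after their values were seen. The PU.1 letters were in 99 promoter windows, but those windows and the tallest peaks are different stretches, so 99 and 4 are not directly comparable. Counts under footprints of every library were also lower for other motifs. C/EBP letters were in 59 windows and 6 genes, NF-Y letters in 106 and 9, and the GC box in 53 and 25. CTCF letters went the other way, in 6 windows and 17 genes. Among these 17, the peak midpoint of replicate 1 lay over 500 bp downstream of the TSS in Chrm4, Trpv2, Ripor3, Plekhg4 and Ppfia4. It lay over 500 bp upstream in Spocd1, Pga5, Npff, 4930451I11Rik, Aipl1 and Myo7a. It was nearer in Hsd3b7, Trim69, Samd9l, Plch2 and Gm17482.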

How the data were processed

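DNase-seq was analysed in 3 libraries of 1 group. Per the labels the assembly was mm10, and per the deposited description files each library's lists came from its own filtered alignment, with no pooling; no aligner or peak caller is named there. Peak heights are a signal value per peak in the deposited narrowPeak files. Footprints and cut rates carry deposited p-value type scores (false discovery rates), used only as lists of positions. Heights are not read counts and read depth was not analysed here: replicates 1, 2 and 4 had 54046, 42657 and 48980 peaks and 144028, 107955 and 119597 footprints, and no counting interval was computed. The genome was GRCm38.p6 from RefSeq, and no peak ran past a chromosome end. A peak counted within a window at an overlap of at least 1 bp. The tallest peak stood for a gene, and footprints were counted by midpoint. Distal and footprint differences were tested by exact sign flips over libraries. Counting was tested on simulated data (Python 3.11.15, numpy 2.4.6, pandas 2.3.3).

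Genes were named by height (12 tallest, 4 lowest), distal peaks (8), footprints (4), up to 5 for each of 4 lists, 3 closed genes and the 2 nearest each side of the CpG threshold. The genes, lists, families and motifs were chosen with earlier results of these data known. Some genes that the naming rule picks are not reported here. Alternatives changed the peak list, height, CpG limit, windows, TSS, neighbours and libraries.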

Additional observations from a re-analysis of the deposited data

How the results depend on the processing

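The 3 libraries cannot give a p under 0.25, so no difference here passes a threshold, and read depth was not analysed. The distal difference, the footprint difference and the height ratio kept their direction under every alternative run. Within height bands, however, the footprint difference was above 0 in the lowest band in all 3 libraries, and the tallest band had no upper limit. The number and the share of open genes have no direction, and their values are given. The number of open low-CpG genes, 333, became 192 with the taller 50% of peaks and 221 at a CpG ratio under 0.20; leaving out each replicate gave 338 to 398. Their share was 4.15% with the shorter peak list, 3.42% with taller peaks, 4.83% and 7.10% at ratios under 0.20 and 0.30, 4.63% within 500 bp, and 6.02% to 7.09% without each replicate. The distal difference was 2.41 (shorter list), 2.38 (taller peaks), 1.63 within 20 kb and 5.85 within 100 kb. It was 2.89 without sensory receptors, 3.05 with 1 gene per locus, and 3.11 to 3.44 without each replicate. The footprint difference was -0.460 (shorter list), -0.519 (taller), -0.609 (500 bp), -0.145 (within height bands), -0.506 (footprints of 10 bp or more) and -0.599 to -0.545 without each replicate. The height ratio was 0.381 (shorter list), 0.426 (taller), 0.345 (genes near another coding TSS left out) and 0.287 to 0.327 without each replicate. Chosen after seeing the data, leaving out the 43 genes near a CpG-richer TSS gave 290 genes and a footprint difference of -0.609, and keeping only peaks with a CpG ratio under 0.25 gave 199 genes, 3.63% and -0.635.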

Other observations

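Further functions were read from the names of the 333 genes after they were known, so the counts have no background and no test. Antigen presentation had 10 genes, all away from a CpG-richer coding TSS, with a median of the mean heights of 2.89. Cd74 was the highest at 5.10 and Ciita, the master regulator of class II genes, the lowest at 0.728. The peak of Tap2 was itself rich in CpG, with a ratio of 0.937 and a midpoint 953 bp downstream of its TSS in replicate 1. Peaks of these 10 genes are therefore not all poor in CpG. The 10 genes had a mean of 10.9 distal peaks within 50 kb, a value that includes the uneven counts of H2-Aa (32, 7 and 6), H2-Eb1 and Tap2. The windows of H2-Aa, H2-Eb1 and Tap2 on chromosome 17 overlap, so the same distal peak can count for more than 1 gene. The phagocyte oxidase and metal transport genes Ncf4, Ncf1, Slc11a1 and Rac2 had a median height of 3.08 and a mean of 8.08 distal peaks. Ncf1 had heights of 2.51, 2.02 and 2.70 with 13, 8 and 7 distal peaks, and Slc11a1, the metal transporter of phagosomes, had heights of 3.40, 3.19 and 4.67. Lipid mediator genes numbered 12 with a median height of 2.76, among them Alox5ap, needed for leukotriene synthesis, with 11 distal peaks in each library.

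Interferon-induced and antiviral genes numbered 29, with a median height of 1.11 and a mean of 2.85 distal peaks. Mx1, an antiviral GTPase, had heights of 0.775, 0.434 and 0.656 with 0, 1 and 1 distal peaks. Inflammasome and cell death genes (11) had a median of 1.19 with Nlrp3 the highest at 2.00, and Nlrp3 was 1 of the 43 genes near a CpG-richer TSS. Complement and coagulation genes (12) had a median of 1.17, led by F10 at 2.81. Genes of the leukocyte cytoskeleton (12) had a median of 1.68 and 7.19 distal peaks.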
